A study of Mus musculus with 9 samples.

Results

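Zfp genes encode zinc finger proteins of the mouse, most of them built from arrays of C2H2 fingers, in which a pair of cysteines and a pair of histidines hold a zinc ion and each finger can read a few bases of DNA. The largest class also carries a KRAB domain, which recruits the corepressor Trim28 and through it the histone methyltransferase Setdb1, and many KRAB zinc finger proteins silence retroviral and other repeat sequences. Many of these genes arose by tandem duplication and lie in clusters. The members are the protein-coding genes with the symbol Zfp followed by digits alone, without Zfp36, selected on their mean level over the 9 libraries, which had to be at least 5 CPM (a gene's count divided by the library's total and scaled to the same total in every library). This measured level chose 223 genes of 364 with such a symbol, and 55573 genes are in the tables. Of the other 141 genes, 20 had no count in any library and 121 lay under the limit.

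RNA was sequenced from splenic CD4+ T cells of B6 mice. The cells of 3 libraries had been activated for 3 hours at 39 °C, those of 3 others for 3 hours at 37 °C, and those of the last 3 were naive (unactivated). Activation used plate-bound antibodies to CD3, part of the T cell receptor complex, and to the costimulatory receptor CD28. The labels name no genotype other than B6 and no age. They do not state that replicates are different mice, so p-values cover the spread among these libraries only, which may be technical. They also leave unclear when CD4+ cells were purified from the cultured spleen cells, and whether naive cells were cultured.

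Library totals were 12647692 to 17605549 counts. CD4 T cell markers (10 genes) summed to 5101 to 5492 CPM at 39 °C, 4740 to 5057 CPM at 37 °C and 5775 to 7211 CPM in naive cells, and all 10 were detected. All 10 markers of B cells were lower in activated cells, and their sum was 246 to 257 CPM at 39 °C, 232 to 240 CPM at 37 °C and 786 to 881 CPM in naive cells. The 6 erythroid markers summed to at most 4.18 CPM at 39 °C, at most 3.19 CPM at 37 °C and 141 to 220 CPM in naive cells. Sums over the 7 myeloid, 5 NK and 2 CD8 T cell markers were also lower in every activated library than in any naive one. The part of these other cells in the comparisons with naive cells was not tested, and in bulk RNA fewer cells of a type and less RNA per cell cannot be told apart. All 223 members passed the count filter, and 9 had a mean under 5 CPM in at least 1 group and so owe their place to the groups in which they were higher.

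The members whose levels moved most on activation were neighbours on chromosome 17. The start regions of this pair, Zfp948 and Zfp52, are shown beside those of Zfp53, the next member upstream, which was not called, and of Zfp945, the KRAB member with the largest fall, in the same cluster. Each sequence is RefSeq's window in GRCm38.p6 from 250 bases before to 50 bases after the annotated start, read 5′ to 3′ on the gene's strand. Zfp948 lies at chr17:21566728-21567027 on the plus strand, Zfp52 at chr17:21535289-21535588 on the plus strand, Zfp53 at chr17:21488738-21489037 on the plus strand and Zfp945 at chr17:22867085-22867384 on the minus strand. Capitals mark the letters GGAAA or, on the other strand, TTTCC, the core that NFAT factors of the T cell receptor pathway recognise.
Zfp948: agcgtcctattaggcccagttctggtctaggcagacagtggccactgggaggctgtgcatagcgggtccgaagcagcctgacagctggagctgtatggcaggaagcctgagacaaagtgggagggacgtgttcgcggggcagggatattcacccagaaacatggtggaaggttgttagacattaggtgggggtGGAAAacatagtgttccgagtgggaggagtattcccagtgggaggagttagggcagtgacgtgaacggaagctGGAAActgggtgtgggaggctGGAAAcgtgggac
Zfp52: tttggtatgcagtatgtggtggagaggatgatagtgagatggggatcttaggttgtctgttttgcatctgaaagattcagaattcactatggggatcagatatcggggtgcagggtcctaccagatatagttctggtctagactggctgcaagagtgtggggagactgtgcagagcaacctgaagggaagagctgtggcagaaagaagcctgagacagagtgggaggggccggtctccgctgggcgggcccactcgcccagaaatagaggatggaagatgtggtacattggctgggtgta
Zfp53: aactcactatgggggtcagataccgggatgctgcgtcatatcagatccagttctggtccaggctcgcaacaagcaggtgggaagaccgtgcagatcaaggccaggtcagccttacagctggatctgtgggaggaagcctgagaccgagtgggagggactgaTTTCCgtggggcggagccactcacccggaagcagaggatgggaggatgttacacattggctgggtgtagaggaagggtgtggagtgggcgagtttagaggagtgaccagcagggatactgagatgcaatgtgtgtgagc
Zfp945: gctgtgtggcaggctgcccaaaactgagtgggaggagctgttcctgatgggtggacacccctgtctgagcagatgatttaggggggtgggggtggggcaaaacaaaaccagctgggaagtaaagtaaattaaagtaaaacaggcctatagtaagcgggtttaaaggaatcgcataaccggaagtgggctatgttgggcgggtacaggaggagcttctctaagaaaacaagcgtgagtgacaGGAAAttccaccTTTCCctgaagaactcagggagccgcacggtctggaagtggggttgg

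The letters occurred 3 times in the Zfp948 window, 2 times in that of Zfp945, once (1 match) in that of Zfp53 and 0 times in that of Zfp52. Local alignment of the windows gave identities over the paired bases, gaps left out. Zfp948 was paired with Zfp52 over 172 bases at 80.8% identity (37 gap positions), with Zfp53 over 253 at 79.4% (38 gap positions) and with Zfp945 over 170 at 78.2% (56 gap positions). Zfp52 was paired with Zfp53 over 216 bases at 80.1% (17 gap positions) and with Zfp945 over 86 at 70.9% (9 gap positions), and Zfp53 with Zfp945 over 131 at 78.6% (51 gap positions). The core is common, being present in 61.3% of all 32851 RefSeq windows of this length and in 65.4% of the 234 windows found for 192 members. It was present in 64.8% of windows of members higher at 37 °C than in naive cells, 79.7% of those of lower members and 56.6% of those not called. A match is a description of letters and no evidence of binding. The other motifs searched on both strands, with no overlap between motif types considered, were the AP-1 site TGANTCA (3.85% of member windows, 7.81% of all windows), the CRE core TGACG (36.8% and 20.8%), the Myc-type E-box CACGTG (6.84% and 7.15%) and the GC box GGGCGG (48.3% and 35.7%).

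In cells activated at 37 °C, Zfp genes moved in both directions. Against naive cells, 64 of 223 were higher and 65 lower at an adjusted p under 0.05 by edgeR's quasi-likelihood test with Benjamini-Hochberg adjustment over 13328 genes, which is 57.8% of the members. Of all genes tested 62.7% were called, 30.9% higher and 31.8% lower, and of the 9458 tested genes at 5 CPM or more 69% were called (35% higher, 33.9% lower). The median log2 fold change was 0.03 for the members and -0.0025 for all genes tested. The median size of the log2 fold change, its sign set aside, was 0.32 for the members, 0.49 for all genes tested and 0.44 for genes at 5 CPM or more. Of the members, 6 rose and 5 fell by at least 2-fold, set against 10.8% and 10.5% of all genes tested and 8.98% and 7.39% of those at 5 CPM or more. Upper-quartile scaling moved the split to 42 higher and 90 lower, and shifted the median log2 fold change of all genes by -0.13.

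Zfp948 (chromosome 17, 21567008 to 21588699, plus strand, GRCm38) stood far above the other members. It had 79.4, 79.3 and 83.3 CPM at 39 °C, 91.2, 87.8 and 91.8 CPM at 37 °C, and 6.66, 6.74 and 6.36 CPM in naive cells. Each activated library was above every naive library by a wide margin, and the libraries within a group lay close together. Here and below, ± gives an SE derived from the fold change and the F value of edgeR's test, with n = 3 libraries a group. The log2 fold change of Zfp948 was 3.80 ± 0.075 at 37 °C against naive (adjusted p = 5.92e-12), a 13.95-fold difference. At 39 °C against naive it was 3.64 ± 0.075 (adjusted p = 7.68e-12). Its neighbour Zfp52 (21535539 to 21562601, plus strand) had 79.8, 80.2 and 83.1 CPM at 39 °C, 78.6, 83.8 and 81.9 CPM at 37 °C, and 19.3, 17.7 and 18.3 CPM in naive cells. Again no activated library overlapped a naive one, and the activated groups overlapped each other. Its log2 fold change was 2.17 ± 0.073 at 37 °C (adjusted p = 3.1e-10) and 2.16 ± 0.073 at 39 °C (adjusted p = 3.45e-10), both against naive. The exons of the 2 genes share little with other genes, in that 0.115% of the 50-base words of Zfp948 and 0.869% of those of Zfp52 occur in another annotated gene. An antisense lincRNA, 9330136K24Rik, overlaps the start of Zfp52 and reached at most 1.31 CPM in any library. The strand setting of the counts is not given in the sources used here, so reads of Zfp52 and of this transcript cannot be told apart where they overlap.

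The rest of the cluster moved in both directions. The 17 members between 21008903 and 23193252 all carry the KRAB pattern (a KRAB A box in the translated coding sequence). At 37 °C 4 were higher, 8 lower and 5 not called against naive, with a median log2 fold change of -0.14 (3 higher and 10 lower under upper-quartile scaling). The share called was thus 70.6%, near the 62.7% of all genes tested and the 69% of those at 5 CPM or more. Upstream of the pair, Zfp53 had 66.6, 67.3 and 70.2 CPM at 39 °C, 69.3, 68.7 and 71.6 CPM at 37 °C, and 74.6, 67.7 and 66.1 CPM in naive cells. Its groups overlapped, and the log2 fold change was 0.03 ± 0.074 (adjusted p = 0.72) at 37 °C against naive. Zfp54 and Zfp51, further upstream, were not called either, at 0.14 ± 0.131 and -0.06 ± 0.077 at 37 °C against naive. Zfp54 was called higher at 39 °C against naive, at 0.36 ± 0.128 (adjusted p = 0.0288). On the other side Zfp983 was lower, at -0.40 ± 0.096 (adjusted p = 0.0032), and the next member, Zfp760, was higher, at 0.84 ± 0.157 (adjusted p = 0.00059). Zfp760 had 4.50 to 4.98 CPM in naive libraries, under the limit, and so owes its place to the activated groups. At the distal end Zfp945 had 12.602, 12.3 and 14.97 CPM at 39 °C, 10.7, 13.3 and 11.98 CPM at 37 °C, and 35.8, 33.9 and 31.9 CPM in naive cells. Every activated library was below every naive one, with a log2 fold change of -1.47 ± 0.110 (adjusted p = 2.61e-07) at 37 °C and -1.32 ± 0.108 (adjusted p = 6.49e-07) at 39 °C.

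**Figure D1:**
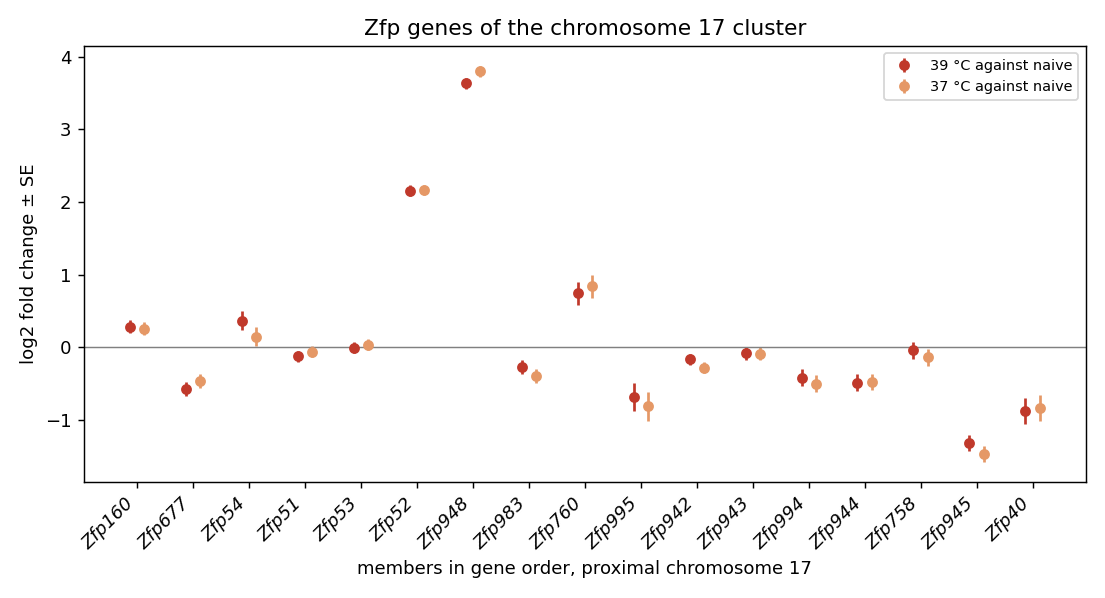
Log2 fold change ± SE of the 17 Zfp genes of the chromosome 17 cluster in gene order, at 39 °C (red) and 37 °C (orange), each against naive, from 3 libraries a group. Zfp52 and Zfp948 stand next to each other at 2.17 and 3.80 at 37 °C while the neighbour Zfp53 lies at 0.03.

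The next largest rises were in genes from other chromosomes. Zfp202, whose human counterpart is a repressor of lipid metabolism genes, had 14.02, 11.9 and 12.9 CPM at 39 °C, 12.601, 12.3 and 11.9 CPM at 37 °C, and 2.49, 4.32 and 3.81 CPM in naive cells. All activated libraries were above all naive ones, with a log2 fold change of 1.82 ± 0.156 (adjusted p = 9.03e-07) at 37 °C against naive. Zfp516, which activates thermogenic genes in mouse brown fat, had 7.99, 11.1 and 10.1 CPM at 39 °C, 9.41, 9.34 and 7.83 CPM at 37 °C, and 2.62, 4.32 and 3.52 CPM in naive cells. It rose by 1.38 ± 0.180 on the log2 scale (adjusted p = 3.4e-05), without overlap with naive cells. Zfp202 and Zfp516 lay under 5 CPM in every naive library, and so owe their place among the members to the activated groups. Zfp719 and Zfp397 rose by 1.11 ± 0.120 (adjusted p = 6.99e-06) and 1.10 ± 0.088 (adjusted p = 4.92e-07) on that scale. Zfp330, a nucleolar protein in which no C2H2 finger was found, had 141, 131 and 135 CPM at 39 °C, 129.9, 128 and 132 CPM at 37 °C, and 68.0, 65.7 and 68.3 CPM in naive cells. The groups at 39 °C and 37 °C overlapped and both lay above the naive one, by a log2 fold change of 1.04 ± 0.065 at 39 °C (adjusted p = 6.68e-08) and 0.97 ± 0.065 at 37 °C (adjusted p = 1.06e-07).

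The largest fall was in Zfp365, also without a matched finger. It had 3.32, 4.98 and 3.55 CPM at 39 °C, 2.48, 3.09 and 2.69 CPM at 37 °C, and 8.61, 9.45 and 8.29 CPM in naive cells. The 3 groups did not overlap, and the log2 fold change was -1.64 ± 0.172 at 37 °C against naive (adjusted p = 5.34e-06) and -1.14 ± 0.164 at 39 °C against naive (adjusted p = 8.01e-05). Its mean of 5.16 CPM put it just inside the limit, through its level in naive cells. Zfp467, which favours fat over bone formation in mouse marrow progenitors, had 7.99, 5.69 and 6.13 CPM at 39 °C, 5.38, 6.66 and 6.14 CPM at 37 °C, and 18.5, 17.9 and 16.3 CPM in naive cells. Its activated groups overlapped each other and stayed below the naive one, with a log2 fold change of -1.51 ± 0.143 at 37 °C (adjusted p = 2.18e-06). Zfp810, Zfp287, Zfp692, Zfp414 and Zfp775 were lower, at -1.18 to -0.97 on the same scale, each with every 37 °C library below every naive one.

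**Figure D2:**
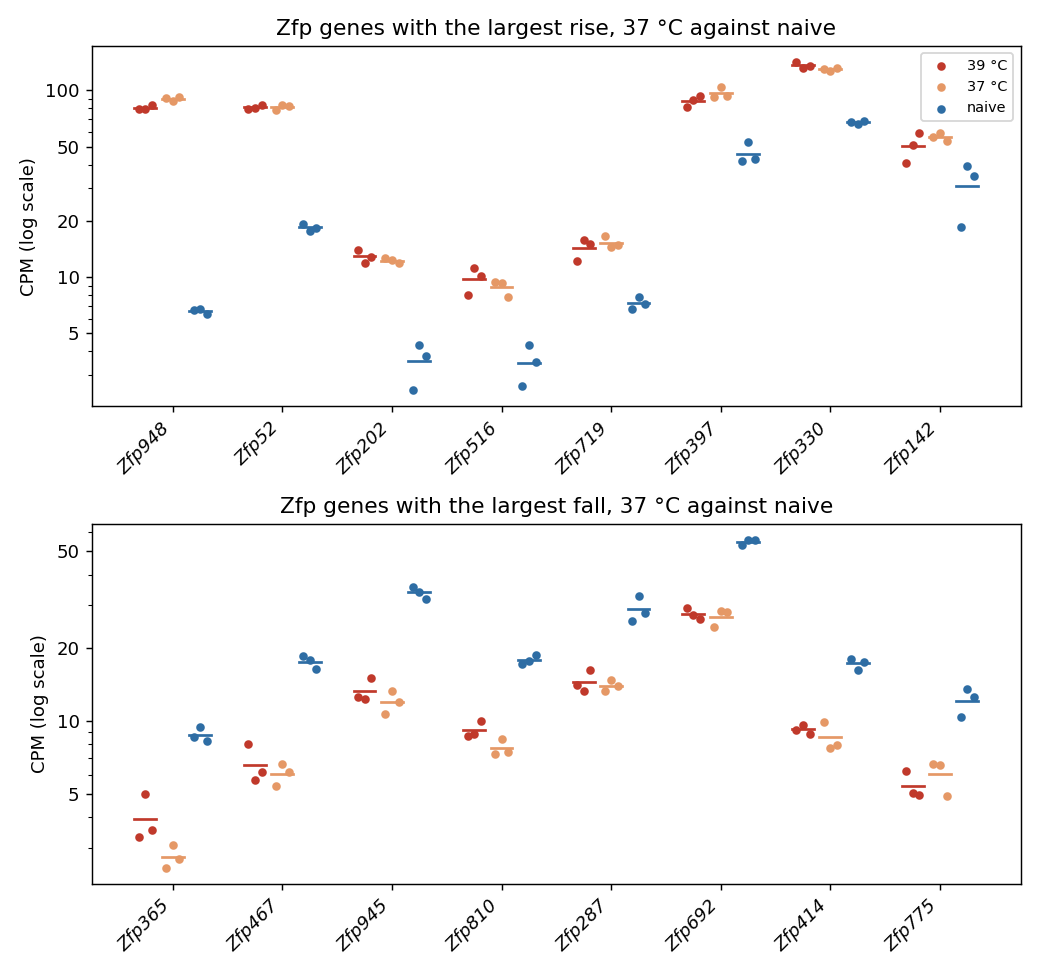
CPM (log scale) in each of the 9 libraries for 8 Zfp genes that rose most and 8 that fell most at 37 °C against naive; points are libraries and bars are group means, with 39 °C (red), 37 °C (orange) and naive (blue). Zfp948 shows 79.3 to 83.3 CPM at 39 °C, 87.8 to 91.8 CPM at 37 °C and 6.36 to 6.74 CPM in naive cells.

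Fewer members with the KRAB pattern were higher than lower, while more of the other members were higher than lower. Of 116 members with it, 23 (19.8%) were higher and 43 (37.1%) lower at 37 °C against naive (median log2 fold change -0.13). Of 107 without it, 41 (38.3%) were higher and 22 (20.6%) lower (median 0.15). Among all genes tested 62.7% were called, 30.9% higher and 31.8% lower, and among those at 5 CPM or more 35% were higher and 33.9% lower. The larger share of each class thus lay near the general share, and the smaller one lay further below it. The same comparison at 39 °C, which shares the naive libraries, gave 21 higher and 38 lower with the pattern, and 39 higher and 21 lower without it. There 29.2% of all genes tested were higher and 29.8% lower. The pattern missed some KRAB proteins, among them Zfp445, so the classes are approximate. It was found in 20 of 19338 other coding genes searched. That search left out Zfp, Zbtb, Zscan, Zkscan, Klf, Znf and Prdm symbols, some smaller families, and genes with Gm or Rik symbols. The 20 therefore give no rate over all genes outside the Zfp symbols. No test was made of the difference between the classes. They differed in level, base composition and finger number as well. The members with the pattern had a median level of 18.8 CPM, a median of 41.3% GC in the longest transcript and a median of 12 fingers. Those without it had 38.8 CPM, 50.0% GC and 8 fingers. Per kilobase of exon the medians were 3.84 and 7.09 CPM.

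Each class was also split at the members' median level, and levels within a part were not matched. At or above that level, 10 of 40 members with the pattern were higher and 14 lower (median log2 fold change 0.011). Of 72 without it, 32 were higher and 14 lower (median 0.20). Below that level, 13 of 76 with the pattern were higher and 29 lower (median -0.14). Of 35 without it, 9 were higher and 8 lower (median 0.019). The medians of 0.011 and 0.019 were thus close to no change. With a trend of counts on gene length and GC content removed, the counts were 26 higher and 48 lower with the pattern, and 44 higher and 28 lower without it. Upper-quartile scaling gave 14 higher and 58 lower with the pattern, and 28 higher and 32 lower without it, so the direction of the second class turned under that scaling.

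**Figure D3:**
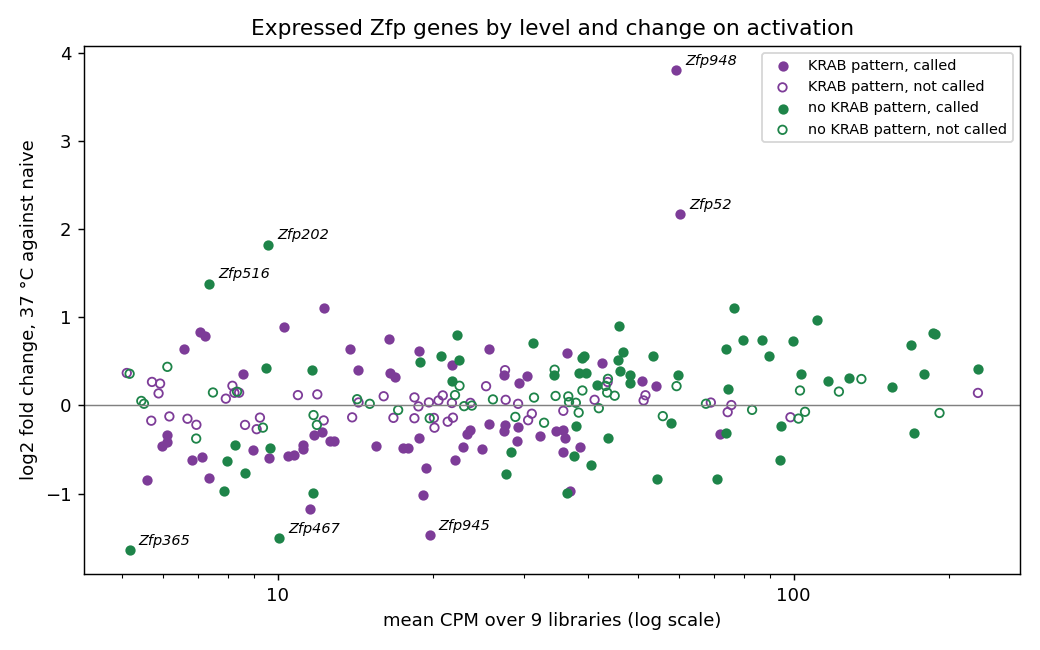
Log2 fold change at 37 °C against naive (vertical) against mean CPM over 9 libraries (log scale, horizontal) for the 223 Zfp genes, with the KRAB pattern in purple and without it in green; filled points passed an adjusted p of 0.05. Zfp948 and Zfp52 lie apart at the top, and 43 purple points are filled below 0.

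The 8 most abundant members include regulators of transcription, mitosis and translation. Zfp871 had the highest mean, with 195, 213 and 244 CPM at 39 °C, 228, 266 and 232 CPM at 37 °C, and 199, 263 and 209 CPM in naive cells. Its groups overlapped and it was not called. Zfp207, which loads the checkpoint protein Bub3 onto kinetochores, had 253, 239 and 248 CPM at 39 °C, 237, 250.5 and 255 CPM at 37 °C, and 198, 183 and 184 CPM in naive cells. It was higher than in naive cells by 0.42 ± 0.072 on the log2 scale at 37 °C (adjusted p = 0.000299) without overlap. Zfp598, the ubiquitin ligase that senses collided ribosomes, had 202, 208 and 210.3 CPM at 39 °C, 235, 227 and 215 CPM at 37 °C, and 107, 147 and 142 CPM in naive cells. It rose by 0.81 ± 0.092 at 37 °C against naive (adjusted p = 1.1e-05), and every 39 °C library lay below every 37 °C one. Zfp281, a factor that governs the exit of embryonic stem cells from pluripotency, rose by 0.82 ± 0.073 (adjusted p = 1.37e-06). Zfp106, an RNA-binding protein needed by motor neurons, rose by 0.69 ± 0.094 (adjusted p = 4.7e-05), and 24.7% of its 50-base words occur in another gene, so its count is less certain. Zfp592 was not called, at -0.09 ± 0.084, and Zfp740 was lower at -0.32 ± 0.072 (adjusted p = 0.00231). Per kilobase of exon the highest member was Zfp869, named for that level after the values were seen, at 62.0 CPM per kilobase, ahead of Zfp598 at 48.3.

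Of 28 members named for a known role, 13 were higher and 3 lower at 37 °C against naive (10 and 9 under upper-quartile scaling), so 57.1% were called, near the 62.7% of all genes tested. Among the silencing factors, Zfp445, which maintains DNA methylation at imprinted genes, had 176, 187 and 201 CPM at 39 °C, 191, 206 and 186 CPM at 37 °C, and 136, 181 and 148 CPM in naive cells. Its 37 °C libraries lay above the naive ones (log2 fold change 0.36 ± 0.087, adjusted p = 0.00343), while those at 39 °C overlapped them (0.31 ± 0.087, adjusted p = 0.00912, a call lost under upper-quartile scaling). Zfp568, which represses a placental Igf2 promoter, rose by 0.64 ± 0.134 (adjusted p = 0.0013). Zfp809, which silences murine leukaemia proviruses at their primer binding site, had 27.0, 30.8 and 32.1 CPM at 39 °C, 32.1, 36.2 and 32.9 CPM at 37 °C, and 23.5, 31.7 and 27.2 CPM in naive cells. It was higher at 37 °C against naive (0.33 ± 0.100, adjusted p = 0.0125) and not called at 39 °C against naive (0.15 ± 0.100, adjusted p = 0.21), and its difference between temperatures was itself not called (-0.18 ± 0.100, adjusted p = 0.745). Zfp638, which works with the HUSH silencing complex, was higher at 37 °C by 0.28 ± 0.092 (adjusted p = 0.0203), a call that was lost without either the second 37 °C library or the third naive one, and with scaling by upper quartile or library size alone. The call of Zfp809 was lost without the second 37 °C library and under upper-quartile scaling.

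Among regulators of other kinds, Zfp451, a SUMO ligase, rose by 0.64 ± 0.082 (adjusted p = 3.02e-05) at 37 °C against naive. Zfp318, required for IgD expression in B cells, rose by 0.52 ± 0.131 (adjusted p = 0.00446), with 43.8, 51.2 and 54.7 CPM at 39 °C, 47.1, 59.3 and 45.9 CPM at 37 °C, and 29.9, 44.0 and 35.0 CPM in naive cells. The 10 B cell markers were lower at 37 °C against naive, and the part of B cells in the Zfp318 values was not tested. Zfp384 was higher by 0.31 ± 0.064 (adjusted p = 0.00115), and Zfp91, a ubiquitin ligase, by 0.21 ± 0.066 (adjusted p = 0.015). The call of Zfp91 was lost with scaling by upper quartile or library size alone, with every counted gene kept, and after correction for gene length and GC content. The 3 that were lower were Zfp831, Zfp652 and Zfp622. Zfp831 had 47.2, 51.3 and 57.0 CPM at 39 °C, 56.4, 59.8 and 55.1 CPM at 37 °C, and 79.8, 126 and 106 CPM in naive cells, and every activated library was below every naive one (log2 fold change -0.83 ± 0.122, adjusted p = 8.57e-05 at 37 °C). Zfp652 was lower at -0.62 ± 0.093 (adjusted p = 9.83e-05), with 18.6% of its words shared with another gene. Zfp622, a factor of large ribosomal subunit assembly, was lower at -0.23 ± 0.078 (adjusted p = 0.0204), and that call was lost without the second 37 °C library and in a fit of the 6 libraries compared. Zfp143, a promoter-bound activator, stayed between 38.7 and 43.5 CPM in all 9 libraries. Zfp410, whose known target is Chd4, was not called at 0.11 ± 0.070 (adjusted p = 0.193), while Chd4 itself was higher by 0.99 ± 0.127 (adjusted p = 2.79e-05).

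A corepressor and heterochromatin list holds Trim28 and Setdb1 beside other chromatin genes, and many of its genes were higher in activated cells. Of its 33 genes, all of them tested, 22 were higher and 5 lower at 37 °C against naive (median log2 fold change 0.37). Under upper-quartile scaling 17 were higher and 7 lower. Of all genes tested 30.9% were higher and 31.8% lower, and of those at 5 CPM or more 35% and 33.9%. At 39 °C against naive 19 were higher and 4 lower (16 and 7 under upper-quartile scaling), where 29.2% of all genes tested were higher and 29.8% lower. Trim28, the corepressor that binds KRAB, had 362, 360.1 and 338 CPM at 39 °C, 382, 371 and 379 CPM at 37 °C, and 248, 261 and 278 CPM in naive cells. No activated library overlapped a naive one (0.55 ± 0.067 at 37 °C, adjusted p = 2.01e-05). Setdb1 rose by 0.39 ± 0.081 (adjusted p = 0.00121), Rbbp7, a histone chaperone, by 1.08 ± 0.084 (adjusted p = 4.16e-07) and the DNA methyltransferase gene Dnmt3a by 1.85 ± 0.135 (adjusted p = 2.1e-07). The methyl-DNA-binding gene Mbd2 was lower at -0.83 ± 0.112 (adjusted p = 4.48e-05), and Ehmt2, a histone H3 lysine methyltransferase, was lower at -0.56 ± 0.088 (adjusted p = 0.000136). Between temperatures 0 of the 33 were called, where 0.758% of all genes tested were. An unadjusted p under 0.05 by edgeR's test was found for 3 of the 33, and for 7.96% of all genes tested. Other C2H2 families at the same level limit gave 15 higher and 6 lower of 31 Zbtb genes, 4 and 7 of 18 Zscan and Zkscan genes, 3 and 5 of 9 Klf genes, and 3 and 3 of 16 Zfp genes with a letter in the symbol, at 37 °C against naive. The shares called were 67.7%, 61.1%, 88.9% and 37.5% in that order of families, where 62.7% of all genes tested and 69% of those at 5 CPM or more were called. Under upper-quartile scaling the counts were 11 and 10, 3 and 9, 3 and 5, and 1 and 8.

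Temperature left no called difference in any member. By edgeR's quasi-likelihood test 0 of 223 were called at 39 °C against 37 °C, where 0.758% of all genes tested were, and 8 members (3.59%) had an unadjusted p under 0.05, where 7.96% of all genes tested did. DESeq2 also called 0 members, and 4 had an unadjusted p under 0.05. The intervals were narrow. Log2 fold changes ran from -0.33 to 0.50, with a median of -0.0055, and 219 were under 0.25 in size. The 95% interval of the fold change lay within 1.5-fold in either direction for 211 members and within 2-fold for all 223. The libraries of the 2 groups did not overlap for 24 members (14 higher and 10 lower at 39 °C, 10.8%), where they did not for 21.2% of all genes tested.

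The 6 members with the smallest p show what these differences looked like. Zfp949 had 17.9, 17.7 and 18.03 CPM at 39 °C, 21.4, 20.4 and 22.4 CPM at 37 °C, and 22.6, 26.0 and 25.7 CPM in naive cells. The groups did not overlap, and the log2 fold change at 39 °C against 37 °C was -0.26 ± 0.082 (unadjusted p = 0.00869, adjusted p = 0.315 by edgeR's test). Zfp948, the member with the largest rise on activation, was next at -0.16 ± 0.060 (adjusted p = 0.458), and its 95% interval was -0.30 to -0.03 on the log2 scale. Zfp365 had the largest estimate, 0.50 ± 0.188 (adjusted p = 0.468), with the interval 0.09 to 0.92. Zfp85 was at -0.33 ± 0.130 (adjusted p = 0.518), Zfp12 at -0.23 ± 0.095 (adjusted p = 0.545) and Zfp653 at 0.20 ± 0.083 (adjusted p = 0.569). None of these differences passed the adjustment. Of the members called in either comparison with naive, 56 were higher and 53 lower in both, 20 were called at 37 °C alone and 10 at 39 °C alone, and those comparisons share the naive libraries. At 39 °C against naive 60 members were higher and 59 lower (53.4%, median log2 fold change 0.03), where 58.9% of all genes tested were called, 29.2% higher and 29.8% lower. That a member was called at one temperature alone does not show that the temperatures differed.

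**Figure D4:**
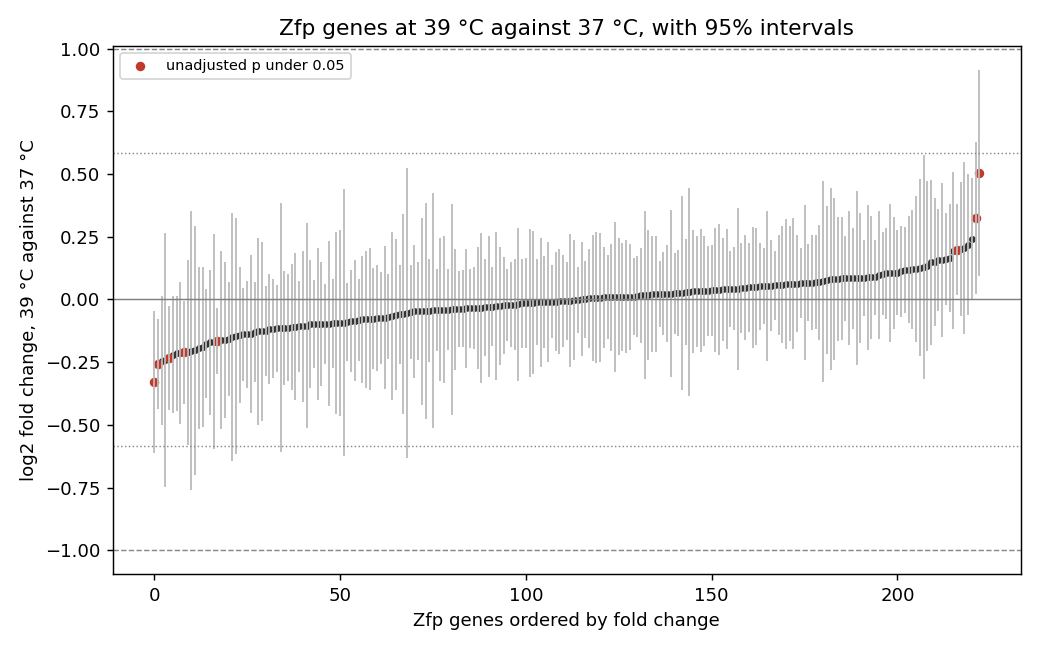
Log2 fold change at 39 °C against 37 °C with 95% intervals for the 223 Zfp genes, ordered by estimate; red points have an unadjusted p under 0.05, dotted lines mark 1.5-fold and dashed lines 2-fold. No interval reaches 2-fold, and 211 stay within 1.5-fold.

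Naive libraries were less alike than the activated ones. The median SD of log2 CPM among the 3 libraries of a group was 0.0949 at 39 °C, 0.0847 at 37 °C and 0.138 in naive cells for the members. For all genes tested it was 0.109 at 39 °C, 0.0944 at 37 °C and 0.185 in naive cells. Of the 12 members with the largest naive spread, a set chosen after the values were seen, 11 were lowest, among the naive libraries, in naive library 1. Over all 223 members the lowest naive library was library 1 for 94, library 2 for 58 and library 3 for 71. Zfp526 had 16.8, 18.6 and 19.9 CPM at 39 °C, 18.5, 22.2 and 16.4 CPM at 37 °C, and 10.5, 29.2 and 25.2 CPM in naive cells. Zfp335, needed for the maturation of naive T cells in the mouse, had 50.9, 59.8 and 62.5 CPM at 39 °C, 62.6, 70.0 and 59.0 CPM at 37 °C, and 30.4, 77.5 and 61.1 CPM in naive cells. In both genes naive library 1 stood below all the other libraries, and neither was called. Naive library 1 also had the largest share of counts from ribosomal protein genes, 14.8% against 10.4% and 12.3% in the other naive libraries, with 7.92% to 10.2% in activated ones, and the smallest share from the 223 members, 0.763%. The part of that library's composition in these values was not tested. Without it, Zfp526 and Zfp687 were called lower at 37 °C against naive (log2 fold change -0.46, adjusted p = 0.00367, and -0.32, adjusted p = 0.0185), and the members without the KRAB pattern gave 41 higher and 27 lower. Zfp142, higher by 0.90 ± 0.201 (adjusted p = 0.00197) with all libraries, was higher by 0.66 without it (adjusted p = 0.000248).

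**Figure D5:**
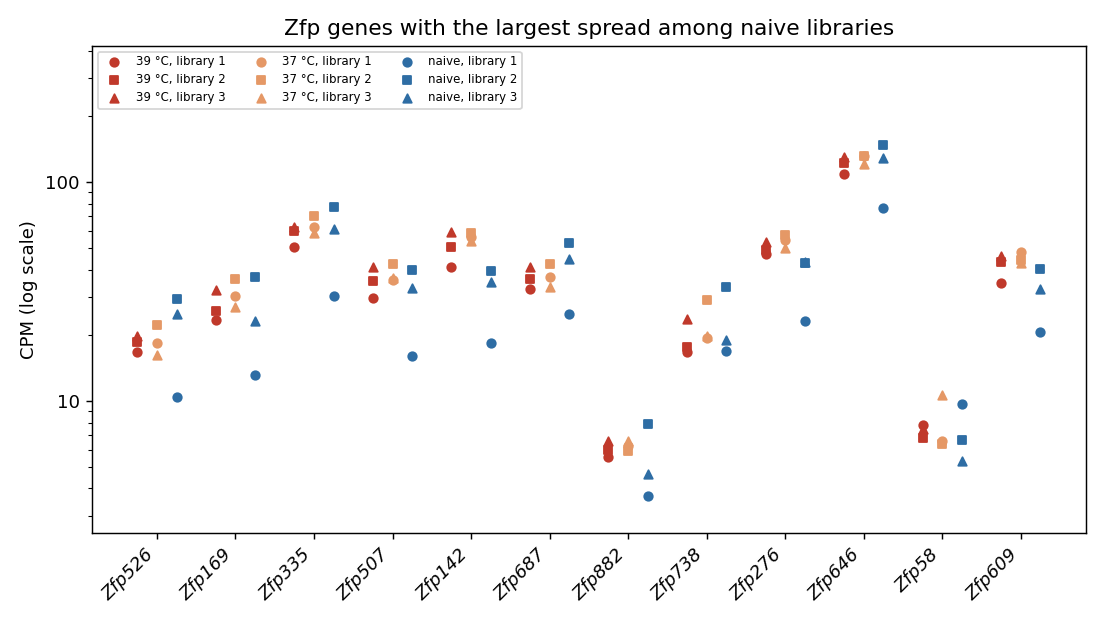
CPM (log scale) in each library for the 12 Zfp genes with the largest spread among naive libraries; colour gives the group (39 °C red, 37 °C orange, naive blue) and shape the library number. Naive library 1 (blue circles) is the lowest naive library in 11 of the 12.

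The limit itself fell among genes of similar level. Just inside it Zfp619 averaged 5.10 CPM, Zfp69 5.16 CPM and Zfp365 5.16 CPM, and just outside it Zfp934 averaged 4.93 CPM, Zfp97 4.84 CPM and Zfp524 4.82 CPM. Of the genes named for a known role, Zfp608 at 4.28 CPM and Zfp683 at 0.264 CPM lay outside. Among the members, 121 had another member within 200000 bases, and chromosomes 7 (57 members), 17 (31), 13 (17) and 8 (16) held the most. Of the 31 on chromosome 17, 7 were higher and 12 lower at 37 °C against naive, and of the 57 on chromosome 7, 19 were higher and 15 lower (12 and 22 under upper-quartile scaling), so 61.3% and 59.6% were called, near the 62.7% of all genes tested. Reads that fit more than 1 gene matter for some of them, since 38 members share over 10% of their 50-base words with another gene. Of those 38, 9 were higher and 13 lower at 37 °C against naive, and of the other 185, 55 were higher and 52 lower. The authors' treatment of such reads is not given in the sources used here.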

How the data were processed

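RNA-seq counts of 9 libraries were used. Each deposited table gives raw read counts per gene in 1 column. GRCm38 is the build in the submitters' processing notes, which list HISAT2, HTSeq, FastQC and DESeq2 but neither versions nor roles, and which tool made the tables and the strand setting are not given in the sources used here. Symbols, coordinates and coding sequences came from GENCODE M21 (GRCm38), which matched 55480 of 55573 identifiers. Counts were filtered with filterByExpr (minimum count 10, minimum total 15), scaled by TMM and fitted with edgeR 4.0.16 in R 4.3.3, all 9 libraries in 1 fit, by 2-sided quasi-likelihood F tests adjusted by Benjamini-Hochberg over 13328 genes. The fit was checked on simulated counts. C2H2 fingers and the KRAB A box were found by letter patterns in translated GENCODE coding sequences, not in RefSeq proteins as planned. Groups came from the labels. Alternatives were other scalings and filters, DESeq2 1.42.0, a replicate block, a length and GC trend and leaving out each library; the class counts under them were added after seeing the data. The members and gene lists were chosen with earlier results of these data known. Named members are the 8 most abundant, the 8 largest rises and 8 largest falls at 37 °C against naive, the 6 smallest p between temperatures, 3 on each side of the limit and those fixed for a known role.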

Additional observations from a re-analysis of the deposited data

How the results depend on the processing

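Between 39 °C and 37 °C 0 members were called under every alternative run. Against naive, upper-quartile scaling gave 42 higher and 90 lower members at 37 °C and 40 and 86 at 39 °C, with medians of -0.10 at 37 °C and -0.10 at 39 °C, and moved the median of all genes by -0.13 in both comparisons. Lowering the member limit to a mean of 1 CPM gave medians of -0.0084 at 37 °C and -0.025 at 39 °C. Leaving out 1 library at a time gave 56 to 74 higher and 54 to 67 lower members at 37 °C, and 50 to 64 higher and 46 to 59 lower at 39 °C, against naive. The medians then ran from 0.011 to 0.051 and from 0.016 to 0.042, and from -0.025 to 0.010 between temperatures. The labels do not say that replicate numbers mark a shared animal, so the main fit had no replicate block. Deviations of same-numbered libraries correlated at -0.23 to 0.56 (37 °C and naive) and 0.0021 to 0.57 (39 °C and naive). Between 39 °C and 37 °C these correlations were -0.35 to 0.13. Over the 3 comparisons, differently numbered libraries correlated at -0.64 to 0.62. With 3 libraries a group, such values can neither show nor exclude pairing. A replicate block gave 67 higher and 65 lower at 37 °C, 64 and 59 at 39 °C, and 0 between temperatures. For named members 73 results were followed, which do not cover every named member in every comparison. Of the 73, 9 lost their call under at least 1 of their alternatives (45 of 1387 values) and 0 turned in direction. The 9 belong to Zfp91, Zfp445, Zfp609, Zfp622, Zfp638, Zfp653 and Zfp809. Uncalled estimates could turn, as that of Zfp335 at 37 °C against naive was 0.22, and -0.061 without naive library 1. Zfp687 gained a call there without that library. The cause was not tested. Low counts limit members near 5 CPM.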
